A study of Mus musculus with 9 samples.

Results

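Neutrophil elastase (Elane), proteinase 3 (Prtn3), cathepsin G (Ctsg), myeloperoxidase (Mpo) and the membrane protein Ms4a3 are products of the primary, or azurophil, granule stage of myeloid development. Their 5 genes were selected by gene symbol from the 23284 gene symbols of an RNA-sequencing data set on myeloid-derived suppressor cells (MDSCs), the immature myeloid cells that accumulate in tumour-bearing hosts. All 5 symbols were found in each of 9 libraries. The highest mean levels of all 5 genes were in monocytic MDSCs (Mo-MDSCs) of wild-type (WT) mice, and not in the neutrophil-like polymorphonuclear MDSCs (PMN-MDSCs).

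Primary granules form in promyelocytes, the first granule-bearing stage of the neutrophil lineage, and the genes of their proteins are switched on in granulocyte-monocyte progenitors and switched off again as cells mature. Later neutrophils store these proteins but make little of their mRNA, so the mRNAs mark early cells rather than granule content. Granules of the secondary and tertiary kind, with lactoferrin, cathelicidin and gelatinase, are filled at later stages. The serine proteases are made as inactive forms and are trimmed by dipeptidyl peptidase I (Ctsc) before storage on the proteoglycan serglycin (Srgn).

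The cells came from spleens of mice carrying SCT, a spindle cell tumour line, 3 weeks after the tumour cells were injected. There were 3 groups of 3 libraries: PMN-MDSCs of WT mice (C57BL/6J), Mo-MDSCs of WT mice (C57BL/6J), and Mo-MDSCs of mice lacking p16 and p21 (p16/p21-DKO, C57BL/6). PMN-MDSCs of DKO mice were not analysed here. The subsets were separated on magnetic columns, PMN-MDSCs as Ly6G+ cells and Mo-MDSCs as Ly6G- Gr-1+ cells, and the deletion in DKO mice was in the whole animal, not in the sorted cells alone. All animals carried the tumour, so no group shows untreated cells. The labels state an age of 3 weeks, which the methods give as the time after injection, and by the methods the mice were older than that when injected. Whether the replicates of a group came from separate animals was not stated, and p-values measure only the spread between these libraries.

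The subset labels were checked with marker genes. All 5 neutrophil markers measured (Cxcr2, S100a8, S100a9, Csf3r and Mmp8) were lower in WT Mo- than in PMN-MDSCs, and the monocyte markers Ccr2, Ly6c2, Cx3cr1 and F13a1 were higher, while Csf1r did not pass the test. Ly6g was not matched in the files used here. Summed markers of B cells (1020 to 1635 FPKM), erythroid cells (1233 to 2923 FPKM) and red-pulp macrophages (4316 to 7835 FPKM) were present in every library. Those of macrophages and B cells differed between groups as given with the comparisons. Cdkn1a, which encodes p21, was at 8.18, 6.46 and 8.04 FPKM in WT Mo-MDSC replicates 1 to 3 and at 5.55, 8.52 and 6.00 FPKM in the libraries labelled DKO. Cdkn2a, whose locus encodes p16, was at 0.718, 0.772 and 0.432 FPKM in WT Mo-MDSCs and at 0.258, 0.586 and 0 FPKM in those labelled DKO. Values per gene do not tell which exons the reads came from, so they do not check the genotype label.

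The genes lie on 4 chromosomes. In the mouse GRCm38 (mm10) annotation Prtn3 (chr10:79874476-79883174, plus strand) and Elane (chr10:79886247-79888215, plus strand) are neighbours, 3073 bases apart. Mpo is at chr11:87793581-87804413 on the plus strand, Ctsg at chr14:56099881-56102574 on the minus strand, and Ms4a3 at chr19:11629496-11640851 on the minus strand. The longest Prtn3 model overlaps the end of Plppr3, which lies on the opposite strand, and it was not stated whether reads were assigned by strand.

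The promoters of Elane and Prtn3 are shown because these adjacent genes had the largest differences between the groups. Each window is from RefSeq (GRCm38.p6) and runs from 250 bases before the transcript start to 50 after it, 5′ to 3′ on the gene's strand, at chr10:79886062-79886361 for Elane and chr10:79879417-79879716 for Prtn3. Capitals mark GGAAGT, the core bound by ETS factors such as PU.1, and TATAA.
Elane: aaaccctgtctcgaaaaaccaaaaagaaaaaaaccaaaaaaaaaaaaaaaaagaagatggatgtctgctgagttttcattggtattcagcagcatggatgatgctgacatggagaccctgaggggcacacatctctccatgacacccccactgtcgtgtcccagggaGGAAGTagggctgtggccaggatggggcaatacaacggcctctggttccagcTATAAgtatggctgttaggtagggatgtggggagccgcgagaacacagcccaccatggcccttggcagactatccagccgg
Prtn3: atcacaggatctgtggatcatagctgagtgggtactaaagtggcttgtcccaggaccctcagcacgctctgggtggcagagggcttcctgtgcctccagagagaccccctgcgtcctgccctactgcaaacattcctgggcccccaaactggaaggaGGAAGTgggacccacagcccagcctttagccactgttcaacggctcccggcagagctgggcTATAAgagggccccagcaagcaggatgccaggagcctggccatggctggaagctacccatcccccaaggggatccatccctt

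Both windows have the same arrangement. GGAAGT starts at -83 in Elane and at -93 in Prtn3, counting from the transcript start as +1, and TATAA starts at -31 and -32. A MYB-type core (AACNG) lies between them in both, as aacgg at -50 in Elane and at -55 in Prtn3. Promoters were found for 5 of 5 genes, and all 5 hold GGAAGT on the plus strand, at -205 in Ctsg, -222 in Mpo and -55 in Ms4a3, where a second match lies on the minus strand at 18. Of 32851 promoters of the same length in the RefSeq table, 23.8% hold GGAAGT on either strand, 24.9% hold TATAA, 80.3% hold AACNG and 10.8% hold the C/EBP-type core TTGCNNAA. The last was found in Ms4a3 alone, at 42, and AACNG was found in 4 of the 5 windows, without Ms4a3. TATAA was found in Elane, Prtn3 and, on the minus strand at -236, in Ctsg. None of these matches overlapped another, the motifs were chosen after the sequences had been seen, and a match is a description of the letters only.

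FPKM values, which divide the reads of a gene by transcript length and library depth, are per length and so may be compared between genes. The genes were expressed at low to middling levels. Of the 16614 symbols above 0 in WT Mo-MDSCs, 72.4% had a lower mean than Prtn3, 64.8% than Ms4a3, 46.8% than Elane, 34.4% than Mpo and 29.2% than Ctsg. In PMN-MDSCs these shares were 43.7%, 49.6%, 31.9%, 28.1% and 23.7%, and in DKO Mo-MDSCs they were 50.7%, 47.9%, 34.3% and 29.2% for the first 4 of these genes. Prtn3 was thus the most abundant of the 5 in both Mo-MDSC groups by its mean, and Ms4a3 in PMN-MDSCs.

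The depth behind each value was small. For every one of the 5 genes the 9 values are whole multiples of 1 unit per library, within 0.01 of a read, which allows the fewest reads that fit to be given. By this count Elane had 131 reads over the 3 WT Mo-MDSC libraries, Prtn3 525, Ctsg 21, Mpo 132 and Ms4a3 386. In PMN-MDSCs the numbers were 23, 86, 8, 45 and 140 reads, and in DKO Mo-MDSCs 43, 196, 12, 68 and 170. Exact 95% Poisson intervals from these reads cover counting error only.

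**Figure D1:**
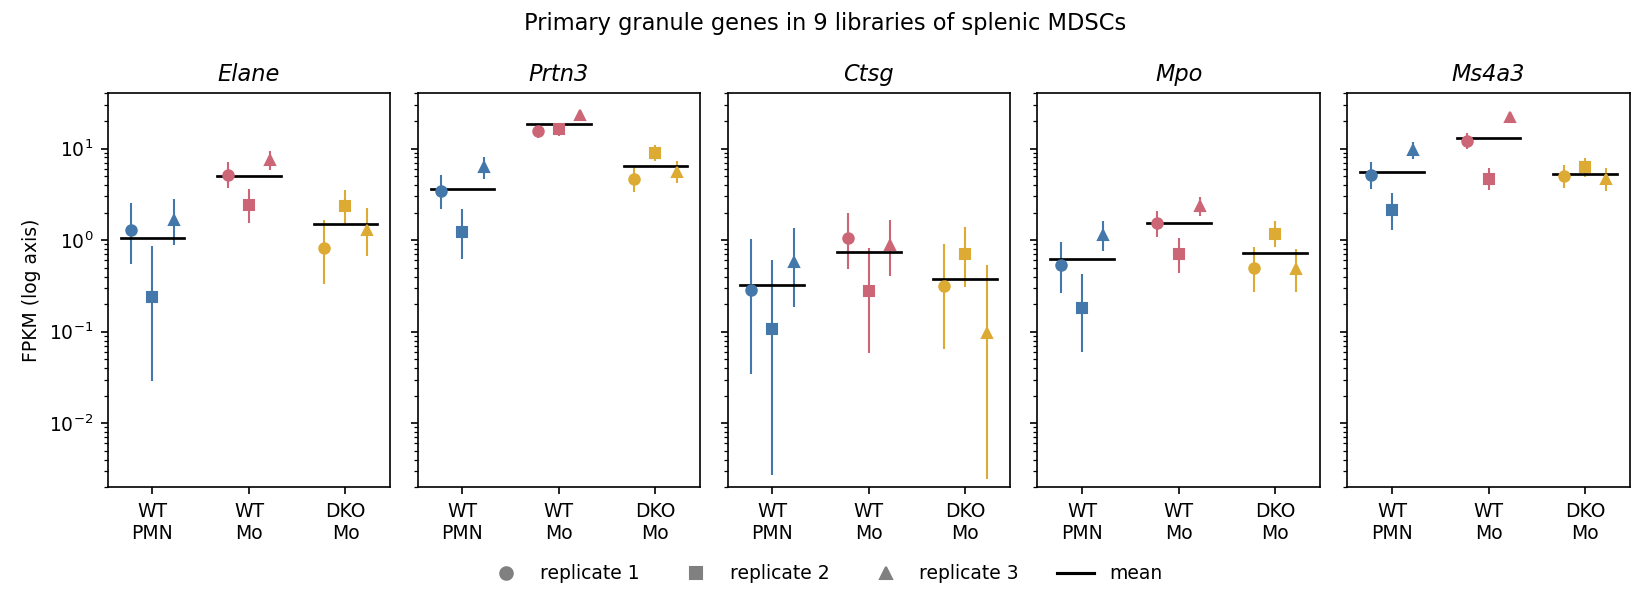
FPKM of the 5 genes in each library on a log axis, by group, with the replicate number as the marker shape, the exact 95% Poisson interval of the reads as the vertical line and the group mean as the horizontal line. Every WT Mo-MDSC library lies above every PMN-MDSC library for Elane and Prtn3, while the groups overlap for the other 3 genes.

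Elane, neutrophil elastase, is a serine protease that cleaves elastin and bacterial proteins. It was at 1.28, 0.240 and 1.67 FPKM in PMN-MDSC replicates 1, 2 and 3. In WT Mo-MDSCs it was at 5.18, 2.40 and 7.43 FPKM, while the DKO libraries were at 0.815, 2.37 and 1.28 FPKM. Every WT Mo-MDSC library was above every PMN-MDSC library, and replicate 2 was the lowest of both groups. The DKO libraries were all below the WT Mo-MDSC libraries, but only just, since DKO replicate 2 (2.37 FPKM, 24 reads) and WT replicate 2 (2.40 FPKM, 23 reads) had nearly the same level. The mean was 5.00 ± 2.52 FPKM (SD, n = 3) in WT Mo-MDSCs, 1.06 ± 0.738 in PMN-MDSCs and 1.49 ± 0.799 in DKO Mo-MDSCs.

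Prtn3, proteinase 3, is a protease whose gene lies beside that of elastase, and it is an antigen of anti-neutrophil cytoplasmic antibodies. Its level was 3.44, 1.24 and 6.23 FPKM in PMN-MDSC replicates 1, 2 and 3, and 15.7, 16.2 and 23.4 FPKM in WT Mo-MDSCs. The DKO Mo-MDSC libraries were at 4.68, 8.96 and 5.60 FPKM. The lowest WT Mo-MDSC library (15.7 FPKM) was above the highest PMN-MDSC library (6.23 FPKM) and the highest DKO library (8.96 FPKM). Prtn3 varied least within WT Mo-MDSCs, with a coefficient of variation of 23.3%, against 50.3% for Elane, 54.2% for Mpo, 54.7% for Ctsg and 67.3% for Ms4a3. DKO Mo-MDSCs and PMN-MDSCs overlapped.

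Ctsg, cathepsin G, is the third of the classical primary granule serine proteases and lies apart from the other two, beside the mast cell protease and granzyme genes. It was at 0.287, 0.108 and 0.575 FPKM in PMN-MDSCs, 1.05, 0.281 and 0.882 FPKM in WT Mo-MDSCs and 0.313, 0.709 and 0.0959 FPKM in the DKO libraries. These values rest on 1 to 9 reads per library. The groups overlapped, and the counting intervals were wide, from 0.478 to 1.98 FPKM for WT Mo-MDSC replicate 1 and from 0.00273 to 0.600 FPKM for PMN-MDSC replicate 2.

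Mpo, myeloperoxidase, makes hypochlorous acid from hydrogen peroxide and is the main non-protease enzyme of these granules. Its levels were 0.536, 0.183 and 1.13 FPKM in PMN-MDSC replicates 1, 2 and 3, and 1.54, 0.699 and 2.36 FPKM in WT Mo-MDSCs. In DKO Mo-MDSCs Mpo was at 0.496, 1.17 and 0.489 FPKM. The groups overlapped, because WT Mo-MDSC replicate 2 lay below PMN-MDSC replicate 3 and below DKO replicate 2.

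Ms4a3 is a tetraspan membrane protein that is made by granulocyte-monocyte progenitors, and its gene is used to trace their descendants. It was at 5.10, 2.13 and 9.54 FPKM in PMN-MDSCs, 12.2, 4.71 and 22.2 FPKM in WT Mo-MDSCs and 5.05, 6.30 and 4.64 FPKM in DKO Mo-MDSCs. WT Mo-MDSC replicates 2 and 3 differed by 4.70 times, and their counting intervals (3.51 to 6.20 and 19.4 to 25.2 FPKM) do not overlap. The DKO libraries differed by 1.36 times at most, with 2 of them inside the range of the WT Mo-MDSC libraries and 1 just below it.

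The first comparison, of WT Mo-MDSCs with WT PMN-MDSCs, asks how the subsets differ. Elane and Prtn3, the 2 adjacent protease genes, were higher in Mo-MDSCs. The mean of Elane was 4.71 times that in PMN-MDSCs, a difference in log2(FPKM + 0.1) of 2.30 (SE 0.67, adjusted p = 0.0321), and that of Prtn3 5.07 times, a difference of 2.55 (SE 0.52, adjusted p = 0.00756). Mpo, with a ratio of means of 2.48 and a difference of 1.29 (SE 0.62, adjusted p = 0.142), and Ms4a3, with a ratio of 2.33 and a difference of 1.18 (SE 0.67, adjusted p = 0.204), did not pass. Ctsg did not reach 1 FPKM in enough libraries to be tested. In a fit without that filter its difference was 0.99 (SE 0.57, adjusted p = 0.273).

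Of the 4 genes tested 2 were thus called higher, where 18.5% of the 11491 genes tested were called higher. Every Mo-MDSC library was above every PMN-MDSC library for the same 2 genes, and this held for 26.2% of all genes tested. For each of these 2 genes the exact two-sided permutation p was 0.1, the smallest that 3 against 3 libraries allow. In a bulk sample more cells of a type and more RNA per cell cannot be told apart. Summed red-pulp macrophage markers were at 4316 to 5173 FPKM in WT Mo-MDSCs and 6873 to 7696 FPKM in PMN-MDSCs, with 5 of 6 called lower and none at 0. Summed B cell markers were at 1020 to 1148 FPKM in WT Mo-MDSCs and 1434 to 1635 FPKM in PMN-MDSCs, with 2 of 5 called lower. The part of either cell type in the differences was not tested. Elane lost its call without WT Mo-MDSC replicate 1 (difference 2.21, adjusted p = 0.0875) and without replicate 3 (1.95, adjusted p = 0.0965). Without PMN-MDSC replicate 2, which held 2 reads of Elane, the difference of Elane was 1.57 (adjusted p = 0.0377) and that of Prtn3 1.95 (adjusted p = 0.00360).

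No pairing of libraries was stated. The replicate numbers were taken to pair those of this comparison, from correlations in these same data. All 5 genes were higher in Mo-MDSCs in each of the 3 same-numbered pairs, as were 38.3% of the 11491 genes tested. The ratio of Mo-MDSCs to PMN-MDSCs was 4.04, 9.99 and 4.46 for Elane and 4.57, 13.1 and 3.75 for Prtn3 in pairs 1, 2 and 3. For Mpo it was 2.87, 3.82 and 2.09, and for Ctsg 3.64, 2.61 and 1.53. For Ms4a3 the ratio was 2.38, 2.21 and 2.32, nearly constant although its level differed by up to 4.48 times between PMN-MDSC libraries and 4.70 times between WT Mo-MDSC libraries.

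With the replicate number as a block all 4 genes tested were called higher, where 27.6% of all genes were. The difference of Ms4a3 was then 1.18 (SE 0.07, adjusted p = 6.62e-05), that of Mpo 1.29 (SE 0.23, adjusted p = 0.00494), that of Elane 2.30 (SE 0.21, adjusted p = 0.000344) and that of Prtn3 2.55 (SE 0.32, adjusted p = 0.00112). Library numbers put replicate 1 of each group in an earlier series than replicates 2 and 3. Within the later series alone the differences were 2.48 for Elane (adjusted p = 0.119), 2.75 for Prtn3 (adjusted p = 0.0565) and 1.16 for Ms4a3 (adjusted p = 0.428), and none was called with 2 libraries a group. The earlier series holds 1 library a group, and Mpo was not tested in the later one.

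**Figure D2:**
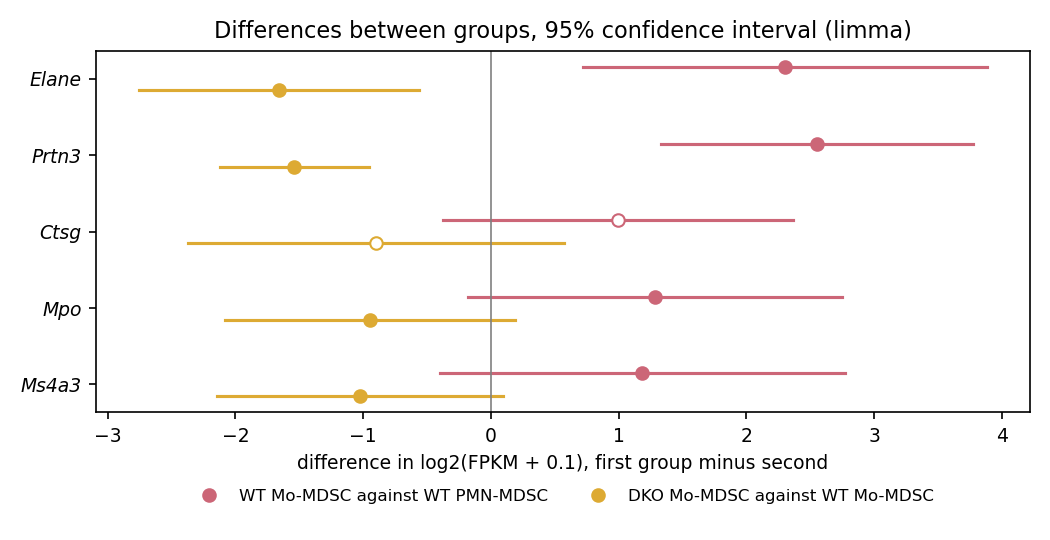
Difference in log2(FPKM + 0.1) between groups for the 5 genes, with the 95% confidence interval of the limma fit without the block. Open points mark Ctsg, taken from the fit without the filter on low values. All differences of WT Mo-MDSCs against PMN-MDSCs are above 0 and all of DKO against WT Mo-MDSCs below 0, but the intervals of Ctsg, Mpo and Ms4a3 include 0 in both.

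The second comparison, of DKO with WT Mo-MDSCs, addresses the loss of p16 and p21. Of the 4 genes tested by limma 0 were called, and 2 (Elane and Prtn3) had an unadjusted p below 0.05. The count of all genes at that unadjusted level is given with the lists below, and it far exceeds the count called. The difference in log2(FPKM + 0.1) was -1.66 for Elane (SE 0.47, adjusted p = 0.202), -1.54 for Prtn3 (SE 0.25, adjusted p = 0.0794), -0.95 for Mpo (SE 0.49, adjusted p = 0.399) and -1.02 for Ms4a3 (SE 0.48, adjusted p = 0.366). The 95% intervals were -2.76 to -0.57 for Elane and -2.12 to -0.96 for Prtn3, before any adjustment for the number of genes. For Ctsg, in the fit without the filter, the difference was -0.90 (SE 0.62, adjusted p = 0.625).

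At an adjusted p below 0.05 the background of this comparison was low, with 0.0873% of 11451 genes called lower. Every DKO library was below every WT Mo-MDSC library for Elane and Prtn3, 2 of the 4 genes tested, and for 12.9% of all genes tested. For both genes the exact two-sided permutation p was 0.1. Same-numbered libraries were not taken as pairs here, and their differences were not alike. For replicates 1, 2 and 3 they were -2.53, -0.02 and -2.44 for Elane and -1.73, -0.85 and -2.04 for Prtn3. For Mpo they were -1.46, 0.67 and -2.06, for Ms4a3 -1.25, 0.41 and -2.23 and for Ctsg -1.47, 1.09 and -2.33. Without DKO Mo-MDSC replicate 2, which held the highest level of all 5 genes in its group, Prtn3 was called, with a difference of -1.80 (adjusted p = 0.0442). In the later library series alone the differences were -1.23 for Elane (adjusted p = 0.525), -1.44 for Prtn3 (adjusted p = 0.398) and -0.91 for Ms4a3 (adjusted p = 0.626). Summed red-pulp macrophage markers were at 5482 to 7835 FPKM in the DKO libraries, above the 4316 to 5173 FPKM of WT Mo-MDSCs, with 1 of 6 called higher (Hmox1, heme oxygenase, difference 1.06, adjusted p = 0.0299). The sum of the monocyte markers Ccr2, Ly6c2, Csf1r, Cx3cr1 and F13a1 was 1367 to 1530 FPKM in the DKO libraries and 1708 to 1928 FPKM in WT Mo-MDSCs, with 0 of these 5 called. The part of either cell type in the lower levels of Elane and Prtn3 was not tested. Both comparisons share the 3 WT Mo-MDSC libraries, so their opposite signs are not independent.

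DKO Mo-MDSCs were also set beside WT PMN-MDSCs, although subset and genotype differ together there. The ratio of means was 1.40 for Elane, 1.76 for Prtn3, 1.15 for Ctsg, 1.17 for Mpo and 0.954 for Ms4a3. The groups overlapped for all 5 genes, with exact permutation p-values from 0.3 (Prtn3) to 0.9 (Ms4a3). The order of the means was WT Mo-MDSCs, DKO Mo-MDSCs and PMN-MDSCs for Elane, Prtn3, Ctsg and Mpo, with the last 2 groups not differing beyond their spread. For Ms4a3 PMN-MDSCs came second.

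The 5 genes moved together between PMN-MDSC libraries, and in part between the libraries of each Mo-MDSC group. The sum of their FPKM was 10.6, 3.90 and 19.1 in PMN-MDSC replicates 1, 2 and 3, 35.7, 24.3 and 56.2 in WT Mo-MDSCs, while the DKO libraries summed to 11.4, 19.5 and 12.1. The orders below were taken with the values of the 5 genes known, so the shares of all genes beside them are no test. In PMN-MDSCs replicate 2 was the lowest and replicate 3 the highest for 5 of 5 genes, an order that 19.9% of 11726 expressed genes had. Elane, Mpo and Ms4a3 had it in WT Mo-MDSCs as well, where 19.5% of expressed genes did. Prtn3 was lowest and Ctsg highest in replicate 1 there. In DKO Mo-MDSCs replicate 2 was the highest for 5 of 5 genes and for 36.3% of expressed genes. The lowest was replicate 1 for Elane and Prtn3 and replicate 3 for Ctsg, Mpo and Ms4a3. The DKO order, with replicate 2 highest, was thus unlike the WT order, which has replicate 2 lowest. Elane, Mpo and Ms4a3 met all of these orders, each in its own group, as did 4.70% of expressed genes.

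Most genes of the later granules shared these orders. The list of 10 such genes also holds Ltb4r1, which encodes a leukotriene receptor and not a granule protein. Of the 10 genes 7 met the order of each of the 3 groups (Ltf, Camp, Ngp, Lcn2, Cd177, Chil3 and Ltb4r1). So did Lyz2, Plac8 and Fcnb among 11 other early granule genes. Cebpe, Cebpd, Gfi1 and Erg did among 15 regulators, and all these genes were named after their values had been seen. Of 12 proliferation genes 0 had the WT order in either WT group, while 10 had DKO replicate 2 highest, as did 36.3% of expressed genes. The summed neutrophil markers moved likewise, with 115804, 91437 and 207559 FPKM in PMN-MDSC replicates 1, 2 and 3, 23905, 13528 and 48003 in WT Mo-MDSCs, while the DKO libraries held 10539, 13051 and 5174. Their ranges in WT and DKO Mo-MDSCs do not overlap, although 0 of the 5 markers was called there, and no marker was at 0 in any library. The sum is mostly S100a8 and S100a9. At an unadjusted p below 0.05 there were 3 markers lower and 1 higher in DKO Mo-MDSCs, the latter being Mmp8, a collagenase of the later granules, with means of 86.6 against 49.2 FPKM (difference 0.79, SE 0.18, adjusted p = 0.156). The part of neutrophil RNA in the lower levels of Elane and Prtn3 in DKO Mo-MDSCs was not tested. Between the subsets all 5 markers were lower in WT Mo-MDSCs, with a median difference of -2.84 on the log2 scale, while Elane and Prtn3 were higher. Of the 10 later granule genes 2 were lower there and 1 was higher, with a median of -0.46.

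**Figure D3:**
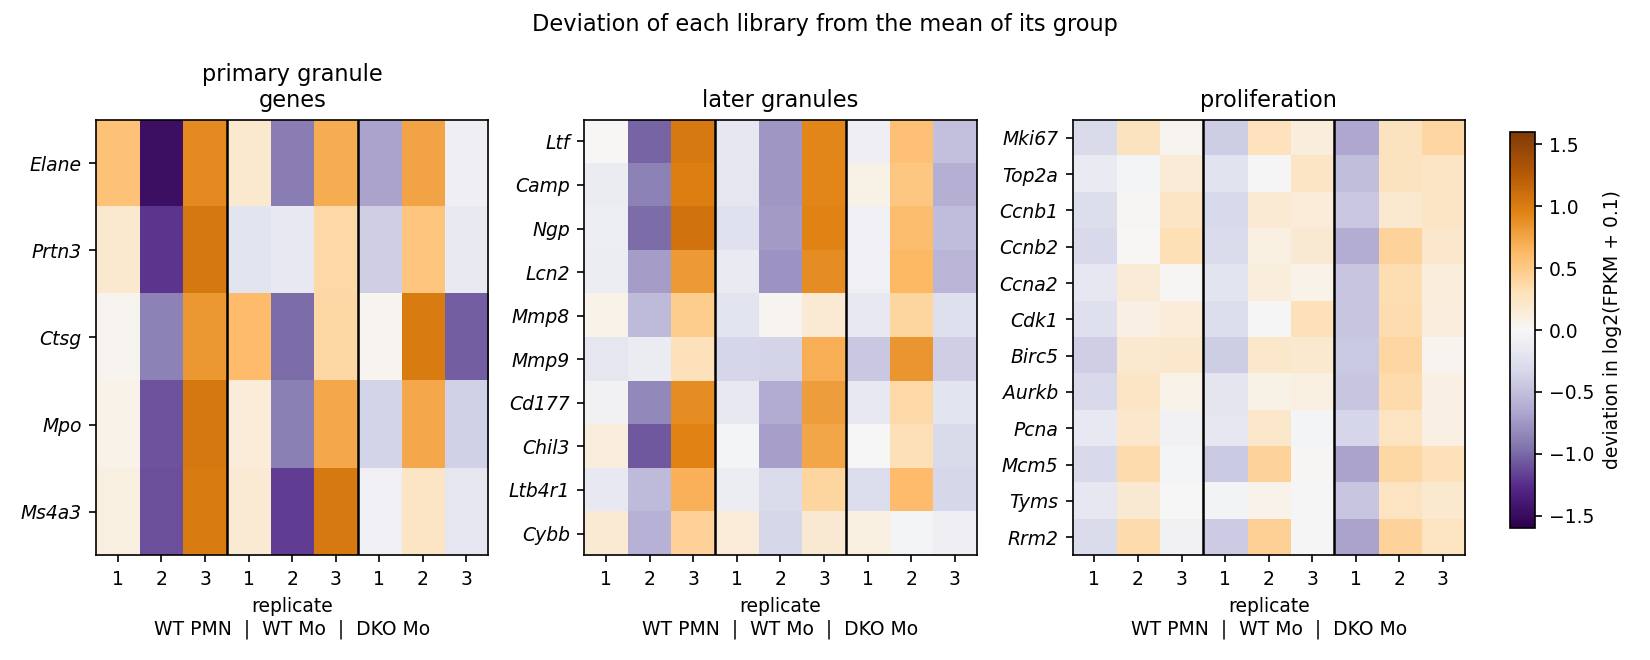
Deviation of each library from the mean of its group in log2(FPKM + 0.1), for the primary granule genes, the later granule genes and the proliferation genes (rows), by group and replicate (columns). PMN-MDSC replicate 2 is low and replicate 3 high for 5 of 5 primary granule genes and for 9 of 10 later granule genes, and 0 of 12 proliferation genes has that order.

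Several other genes of myeloid progenitors had group means in a different order from those of the 5 genes. Prss57, neutrophil serine protease 4 and a further primary granule protease, was at 2.29, 3.99 and 4.92 FPKM in PMN-MDSCs, 1.41, 2.33 and 3.19 FPKM in WT Mo-MDSCs and 1.33, 1.08 and 1.04 FPKM in the DKO libraries. Its difference between WT Mo-MDSCs and PMN-MDSCs was -0.67 (SE 0.36, adjusted p = 0.180). Kit, the stem cell factor receptor, was lower in WT Mo-MDSCs, with means of 1.91 against 3.96 FPKM (difference -1.01, SE 0.22, adjusted p = 0.0103). Flt3, a receptor of early progenitors, was higher (difference 0.96, SE 0.18, adjusted p = 0.00605), and Myb, a progenitor transcription factor, was at 4.82 to 6.14 FPKM in all 6 WT libraries (difference 0.05, SE 0.12, adjusted p = 0.749). Cd34, a surface marker of progenitors, was below 1 FPKM in all 9 libraries. Over the 9 libraries the correlation with the mean of the 5 genes was -0.07 for Prss57, -0.41 for Kit, -0.05 for Myb and 0.73 for Gfi1, a description only, since the points share groups and library series. Among these markers, Flt3 had the same order of group means as Elane, with means of 4.12 FPKM for WT Mo-MDSCs, 2.73 for the DKO libraries and 2.09 for PMN-MDSCs, while Kit had its highest mean in PMN-MDSCs.

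Relatives by protein family were low. Of those reported here only Prss57 passed the filter on low values. The peroxidase genes Epx and Lpo were at or below 0.274 FPKM in every library, and Cma1, a chymase, at or below 0.131 FPKM. Mcpt8, a basophil protease, reached 0.658 FPKM and Cfd, complement factor D, 0.258 FPKM, while Gzma, granzyme A, reached 2.10 FPKM in DKO Mo-MDSC replicate 1.

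Genes next to the 5 on the chromosome had varied levels and differences. Of 24 other protein-coding genes among the 3 nearest on each side, 23 were found in the files and 8 passed the filter. Beside Elane and Prtn3, Cfd was at a mean of 0.122 FPKM in WT Mo-MDSCs, Med16 (difference 0.16, adjusted p = 0.262) was not called, Ptbp1 was slightly higher (0.24, adjusted p = 0.0342) and R3hdm4 was lower in WT Mo-MDSCs (-1.90, adjusted p = 0.000240). Beside Mpo, Mks1 (0.91, adjusted p = 0.00647) and Tspoap1 (0.70, adjusted p = 0.0292) were higher and Supt4a was lower (-0.77, adjusted p = 0.00235). Gzmd, Gzme and Gzmg beside Ctsg were listed at 0 in every library. Ms4a6d, of the same family as Ms4a3, had a mean of 100.1 FPKM in WT Mo-MDSCs, 78.0 in DKO Mo-MDSCs and 16.1 in PMN-MDSCs (difference between the WT groups 2.63, SE 0.15, adjusted p = 3.35e-05). Of the 8 neighbours 0 were called in DKO against WT Mo-MDSCs, and 2 had an unadjusted p below 0.05.

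A list of genes that process, store or inhibit the proteases was measured as well. Of 9 tested, 7 were lower in WT Mo- than in PMN-MDSCs, 1 was higher and 1 was not called, where 20.6% of all genes tested were called lower, and the median difference was -0.68 against 0.01 over all genes. The 7 lower genes include 3 protease inhibitors, Serpinb6a, Slpi and Serpina3g. A further inhibitor, Serpinb1a, was the gene not called (difference -0.46, adjusted p = 0.398). Srgn, the proteoglycan core that binds the proteases, had means of 252 ± 42.8 FPKM (SD, n = 3) in WT Mo-MDSCs and 1610 ± 283.0 in PMN-MDSCs (difference -2.67, SE 0.18, adjusted p = 5.45e-05). Ctsc, which trims the proteases into their active form, was the gene that was higher (difference 0.31, SE 0.10, adjusted p = 0.0386).

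Among 11 other genes of azurophil or early granule content 5 were higher in WT Mo-MDSCs, 0 were lower and 6 were not called. The median difference was 0.92. The 5 were Lyz1, Lyz2, Gusb, Plac8 and Nkg7, while the primary granule protease Prss57 was not called (difference -0.67). Of all genes 18.5% were called higher and 20.6% lower. The largest difference was that of Plac8, a small cysteine-rich protein, with means of 2382 against 411 FPKM (difference 2.54, SE 0.19, adjusted p = 0.000100). Of 15 regulators of progenitors and promyelocytes 7 were higher and 4 lower, with a median of 0.05. Klf4, a factor of monocyte differentiation, was the highest of these (difference 3.25, SE 0.20, adjusted p = 4.18e-05) and Cebpd, a C/EBP factor of mature myeloid cells, the lowest (-2.50, SE 0.12, adjusted p = 1.97e-05).

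Of all genes 39.1% were called in either direction between the subsets. Of 10 later granule genes 1 was higher in WT Mo-MDSCs (Cybb, the oxidase subunit gp91phox, difference 0.83, adjusted p = 0.0462) and 2 were lower, most of all Mmp9, gelatinase B (-5.74, adjusted p = 2.22e-05). Of 12 proliferation genes 1 was higher, Aurkb, a mitotic kinase (0.54, adjusted p = 0.0339), and 11 were not called.

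In DKO against WT Mo-MDSCs 0 genes of these 5 lists were called. The median difference was -0.55 for other early granule content, -0.93 for the later granules, -0.29 for the regulators, -0.05 for protease handling and -0.08 for proliferation, beside -0.02 over all genes tested. At an unadjusted p below 0.05, 8 of 11 genes of other early granule content were lower and 0 higher. Of the 10 later granule genes 8 were lower and 1 (Mmp8) was higher, and of 14 regulators 5 were lower and 1 was higher. Of 9 genes of protease handling 1 was lower, and of 12 proliferation genes 0 passed. In the limma fit of all 11451 genes 29 were called, and 1719 had an unadjusted p below 0.05.

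**Figure D4:**
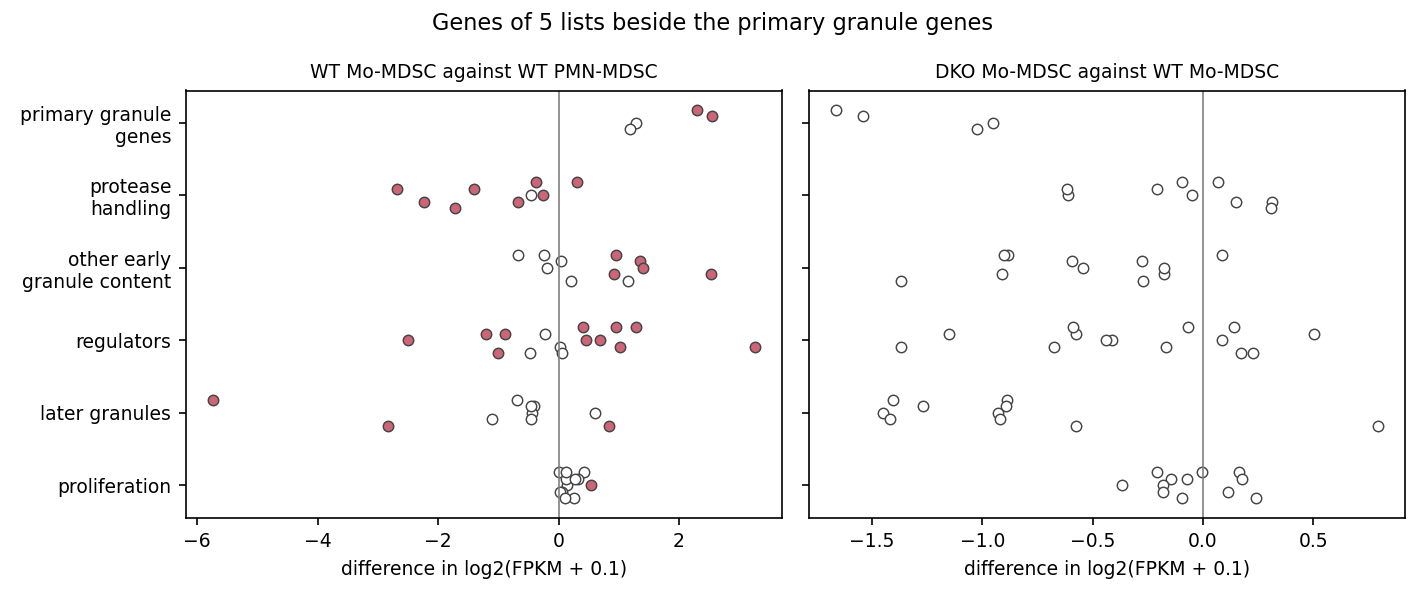
Difference in log2(FPKM + 0.1) of each tested gene (points) of the primary granule genes and of 5 lists, for WT Mo-MDSCs against PMN-MDSCs (left) and DKO against WT Mo-MDSCs (right), with filled points for an adjusted p below 0.05. On the right no point is filled, and the 4 primary granule genes lie between -1.66 and -0.95.

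The genes whose levels were most like the mean of the 5 were found by Pearson correlation over the 9 libraries among 11722 expressed genes. The 10 most alike were Ticam1 (r = 0.970), Aprt (0.966), Apaf1 (0.958), Rnpep (0.956), Hnrnpd (0.953), Capg (0.950), Vim (0.945), C3 (0.944), Cybb (0.938) and Cdc25a (0.935). They are genes of varied function, from the Toll-like receptor adaptor TRIF (Ticam1) to the adenine salvage enzyme Aprt, and none encodes a primary granule protein. Their differences between the groups were smaller than those of the 5. Ticam1 was at means of 12.6, 15.7 and 13.6 FPKM in PMN-MDSCs, WT Mo-MDSCs and DKO Mo-MDSCs, and Aprt, with the largest difference of these 10 apart from Cybb, was at 49.5, 85.6 and 61.5 FPKM (difference between the WT groups 0.81, adjusted p = 0.0225). The 5 genes themselves had correlations with their own mean of 0.905 (Ctsg) to 0.991 (Mpo). All these points share libraries and groups, so the values are descriptions without a test.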

How the data were processed

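RNA of 9 samples was sequenced as single-end reads of stranded mRNA libraries. According to the submitters' processing notes the authors mapped reads to mm10 with TopHat2 2.0.13, Bowtie2 2.2.3 and SAMtools 0.1.19, and they deposited FPKM values from Cuffnorm 2.2.1. The gene annotation is not given in the sources used here. Groups and replicate numbers came from the sample labels. The members and all lists were chosen with earlier results of these data known.

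FPKM values are not counts and were tested as log2(FPKM + 0.1) with limma 3.58.1 (lmFit, eBayes with a trend) in R 4.3.3. Only genes that reached 1 FPKM in 3 or more of the 6 libraries compared entered a fit, and p-values were adjusted by the Benjamini-Hochberg method over all of them, with genes called below 0.05. The script was tested on simulated data. The deviations of same-numbered WT Mo-MDSC and PMN-MDSC libraries from their group means correlated at 0.294, 0.483 and 0.200, so the numbers were taken to pair these libraries. Those of DKO and WT Mo-MDSCs correlated at 0.348, 0.226 and -0.07 and were not.

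The depth of the libraries in reads is unknown. Relative depth, from steps between low values, was 0.809 to 1.31 of WT Mo-MDSC replicate 1. Reads per gene are the fewest whole numbers in the ratio of the deposited values, and with the longest coding transcript of each of the 5 genes they imply a like depth of that library, while shorter coding transcripts of Prtn3 and Mpo would imply more. Exact permutation tests were two-sided. Older symbols were matched through RefSeq synonyms.

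Genes named beside the members are those of the lists with the largest called difference in each direction, markers, protein relatives, the 3 nearest protein-coding genes on each side (GENCODE M21, GRCm38) and the 10 with the most alike pattern. Some genes of the marker and relative lists are not reported here. Alternatives were pseudocounts of 1 and 0.01, other filters, 1 fit of all 9 samples, quantile and upper-quartile scaling, no trend, the replicate block, replicates 2 and 3 only, and leaving out each sample. Other calculations used Python 3.11.15, scipy 1.17.1, numpy 2.4.6 and pandas 2.3.3.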

Additional observations from a re-analysis of the deposited data

How the results depend on the processing

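Every difference of a member kept its direction in all 116 fits under an alternative. Of WT Mo-MDSCs against PMN-MDSCs, 2 members were called. The count was 4 with the replicate block, 1 (Prtn3) with no filter on low values and 1 (Prtn3) with at least 1 FPKM in every sample, where Elane was not tested, and 0 with replicates 2 and 3 only. It was 1 to 2 when single samples were left out. With a pseudocount of 1 the difference of Elane was 1.52 (adjusted p = 0.0198). Elane had an adjusted p of 0.0536 with no filter, where 17357 genes were tested. Genes called in that comparison numbered 4492, against 2759 with replicates 2 and 3 only, 6584 with the block and 3295 to 3864 with single samples left out.

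Of DKO against WT Mo-MDSCs, 0 members were called, and 0 to 1 with single samples left out, the 1 being Prtn3 without DKO replicate 2. The genes called numbered 29. They were 13 with no filter, 51 with all 9 samples in 1 fit, 6 with replicates 2 and 3 only and 8 to 25 with single samples left out, the fewest without DKO Mo-MDSC replicate 3. They were 20 with the replicate block, which called 0 members and changed no call of a member there, and not every sample correlated best with its own number. The cause of these changes was not tested, and the fits that left samples out also had smaller groups. Ctsg was fitted in 1 setting only. Depth limits Ctsg, with 1 to 9 reads a library, and Mpo and Elane in PMN-MDSCs, with 5 to 29 and 2 to 13 reads.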

Other observations

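The proportions of the 5 mRNAs within a library were computed as ratios of FPKM after the values had been seen. Ms4a3 was 1.48 to 1.72 times as abundant as Prtn3 in PMN-MDSCs, with ratios of 0.291 to 0.948 for WT Mo-MDSCs and 0.703 to 1.08 for the DKO libraries. Elane was 3.15 to 3.43 times as abundant as Mpo in WT Mo-MDSCs, 1.31 to 2.39 times in PMN-MDSCs and 1.64 to 2.63 times in DKO Mo-MDSCs. Both ratios were picked from 10 that share genes, and no share for ratios of other genes was computed. The ratio of Prtn3 to Elane, the adjacent genes, overlapped between all groups, from 2.69 to 5.14 in PMN-MDSCs, while the WT Mo-MDSC libraries were at 3.04 to 6.74 and the DKO libraries at 3.78 to 5.74.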
